A study of Mus musculus with 2 samples.

Results

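The tumour necrosis factor (TNF) receptor family was followed on lymphocytes of the mouse small intestine through 8 genes, Tnfrsf4, Tnfrsf9, Tnfrsf18, Tnfrsf25, Tnfrsf14, Tnfrsf1b, Cd27 and Fas, of the 32285 genes counted. The genes were chosen by symbol, and all 8 were found in the feature tables. Receptors of this family sit on the cell surface and bind trimeric ligands of the TNF superfamily. Most of the 8 recruit TRAF adaptors, which lead to NF-kappaB and MAP kinase signalling and act as co-stimulators of lymphocytes, while Fas and the product of Tnfrsf25 carry a death domain. In the gut they are known from T cells and from group 3 innate lymphoid cells (ILC3s), lymphocytes without an antigen receptor that make IL-22 at the barrier.

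Live green cells were sorted from the small intestine of healthy Il23r-eGFP knock-in mice, in which eGFP reports the receptor of the cytokine IL-23, and measured with 10x Genomics droplets. All cells of both groups carried that reporter and came through the same removal of Peyer's patches, EDTA step, enzyme digestion and Percoll gradient. One library was labelled unstimulated and one as given recombinant mouse IL-23, for 2 hours per the design text, so each group was 1 library. The number, age and sex of the animals, and whether the unstimulated cells were incubated as long, were not stated by the labels. Both samples carry one protocol text, which speaks of stimulation, so the group of a library rests on its treatment label alone. With 1 library per group no difference was tested and none has a replicate check. All intervals are 95% intervals that cover counting error only. Where a pair of values is given, the unstimulated library comes first.

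The unstimulated library held 58443284 unique molecular identifiers (UMIs, counted molecules) in 11096 barcodes and the IL-23 library 62291905 in 10440. Cells were kept from 500 genes upward and up to 10% mitochondrial UMIs, which left 10790 and 9251, with a median of 4928 and 6087 UMIs. In the kept cells 2.64% and 3.25% of UMIs were mitochondrial. A total of 29 barcodes occurred in both libraries. No doublet caller was run, so doublets remain.

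Cells were placed in 5 classes by their own transcripts. Cells with no UMI of the CD3 chain genes Cd3e, Cd3d and Cd3g were called Ncr1+ (1052 unstimulated and 1258 IL-23 cells), Ccr6+ (1535 and 1464) or neither (7440 and 5802). Ncr1 encodes NKp46, the marker of natural cytotoxicity receptor ILC3s, and Ccr6 marks ILC3s of the lymphoid tissue inducer-like kind. Cells with Cd3e were called Trdc+ T cells (232 and 221) when they held a UMI of the T cell receptor delta constant gene, and Trac+ T cells (163 and 99) when they held one of the alpha constant gene. Cells that met both conditions of a pair were kept out of the classes, 48 and 59 for Ncr1 with Ccr6 and 23 and 13 for Trdc with Trac. Also in no class were 77 and 97 cells with Cd3e but no UMI of Trdc or Trac, and 220 and 238 cells with Cd3d or Cd3g but no Cd3e. A missing UMI does not show a missing transcript, so the class with neither marker may hold cells of the other CD3-negative classes.

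The class markers followed the names in part. The 8 T cell genes summed to between 9.59 and 13.1 CPM (counts scaled to 1e+06 UMIs of a class) in the CD3-negative classes and to between 1254 and 1907 CPM in the T cells. They include Cd3e, Cd3d and Cd3g, which are absent from the CD3-negative classes by the class rule. The rule also requires Cd3e in the T cells, so this contrast was partly fixed in advance. The 7 ILC3 genes followed were detected in each class of each library, T cells included. The 6 genes of the Ncr1+ kind, Ncr1 among them, summed to 2378 and 2284 CPM in Ncr1+ and 1130 and 1098 in Ccr6+ cells. The 6 lymphoid tissue inducer-like genes, Ccr6 among them, summed to 1527 and 1452 CPM in Ccr6+ and 144 and 137 in Ncr1+ cells. In cells with neither marker the genes of the Ncr1+ kind summed to 1519 and 1488 CPM. The lymphoid tissue inducer-like genes summed to 585 and 587 CPM there. The 7 gamma delta T genes summed to 2961 and 2327 CPM in Trdc+ and 163 and 132 in Trac+ T cells. The 6 alpha beta T genes summed to 1852 and 1819 CPM in Trac+ and 1539 and 1018 in Trdc+ T cells. Ncr1+ cells held 688 and 521 CPM of them. Each of these subset lists includes the gene that defines its class, which is absent from the opposite class by the class rule. These contrasts were therefore also partly fixed in advance. In Trac+ T cells Cd4 was at 124 and 125 CPM and Cd8a at 3.13 and 1.06. Foxp3, which defines regulatory T cells, had a UMI in 2 unstimulated and 0 IL-23 Trac+ cells (a count of 0 allows up to 3), while Ctla4, also carried by activated T cells, was at 976 and 1197 CPM. Plasma cell transcripts differed between libraries within the CD3-negative classes: the 4 plasma cell genes summed to 2153 and 313 CPM in Ncr1+ cells, to 434 and 2119 in Ccr6+ cells and to 1646 and 376 in cells with neither marker. The 6 genes of stress from tissue handling summed to 904 and 809, 1274 and 1249.5, and 924 and 1024 CPM in the same classes, and to 697 and 627 in Trdc+ and 616 and 497 in Trac+ T cells. The 6 B cell genes summed to 3.91 to 16.0 CPM over all classes and libraries, the 8 myeloid genes to 3.44 to 13.7, the 6 epithelial genes to 5.37 to 15.5 and the 4 mast cell genes to at most 1.26. The 6 stromal genes summed to 40.2 to 97.3 CPM, with only Pecam1 at 10 CPM or more. Cells with at least 2 of 8 B or plasma cell genes (24 and 12) or at least 3 of the myeloid genes (10 and 7) were not taken out of the CD3-negative classes. Of the B or plasma cells, 2 and 0 were among the Ncr1+ cells, 3 and 4 among the Ccr6+ cells and 19 and 8 among the cells with neither marker, where all the myeloid cells lay. Leaving these cells out, an alternative added after the data had been seen, kept all 15 differences past 1.5-fold described below. The part of the other marker genes in the values below was not tested.

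Between the libraries, Fas had the highest and Cd27 the lowest ratio among the members abundant enough to be measured in the 3 CD3-negative classes and in both T cell classes. Tnfrsf18 stood higher with IL-23 in the 3 CD3-negative classes, Tnfrsf4 in Trac+ T cells and Tnfrsf25 in Trdc+ T cells. A gene counted as measured in a class when it reached 10 CPM in either library and 20 UMIs in the sum of the libraries, and as higher or lower past a size of 1.5-fold. By this rule 6 of the 8 members were measured in each class and 7 in Trac+ T cells, with 2 higher and 1 lower in each class. The share of all measured genes that stood higher was 5.18% in Ncr1+ cells, 2.87% in Ccr6+ cells, 4.09% in cells with neither marker, 8.01% in Trdc+ and 7.83% in Trac+ T cells. The share that stood lower was 7.26%, 4.32%, 3.89%, 10.6% and 12.2% in the same order. Over the measured pairs of a class and a member, 10 stood higher and 5 lower. The median log2 ratio of the measured members was 0.09, 0.17, 0.09, -0.00046 and 0.29, against -0.12, -0.11, -0.11, -0.06 and -0.07 over all measured genes of the same classes.

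**Figure D1:**
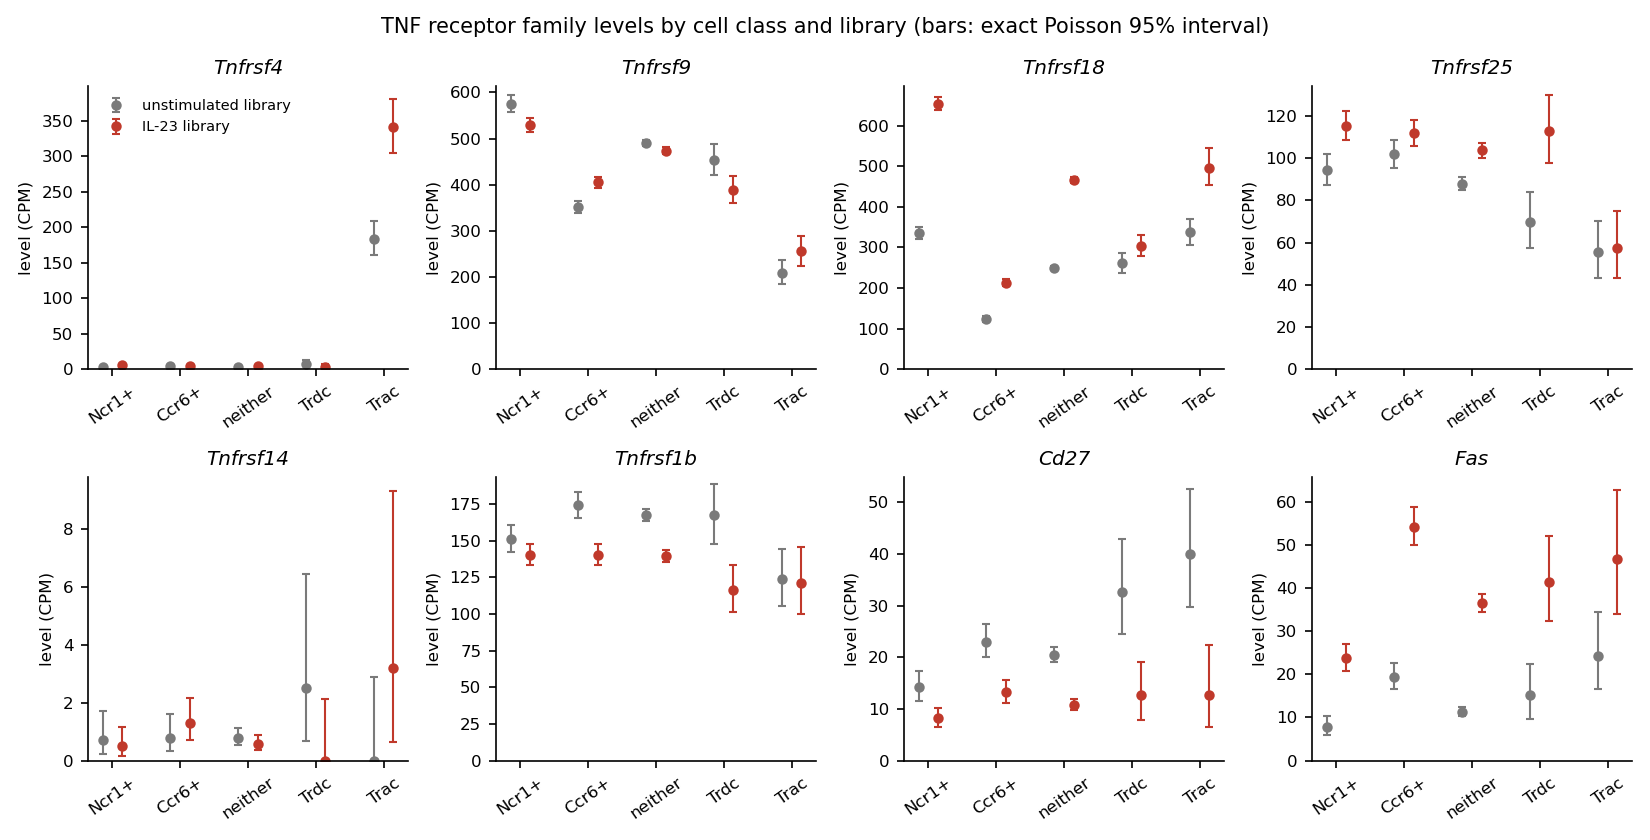
Level of each of the 8 genes in CPM (vertical axis, linear and starting at 0, scaled per gene) in the 5 classes of cells (horizontal axis), with the unstimulated library in grey and the IL-23 library in red; bars are exact Poisson 95% intervals, each from 1 library. Fas lies higher and Cd27 lower in the IL-23 library in each class, and Tnfrsf4 reaches 184 and 341 CPM in Trac+ T cells against at most 7.55 CPM elsewhere.

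The 250 bases before the RefSeq start of Fas and Cd27 (build GRCm38.p6) are shown because these members stood apart in opposite directions in each class. Capitals mark matches to a STAT-type motif, TTCNNNGAA, and to an AP-1-type motif, TGANTCA, each searched on both strands. STAT-type letters were searched because the IL-23 receptor is known to signal through STAT3.
Fas, chr19:34290409-34290658, plus strand: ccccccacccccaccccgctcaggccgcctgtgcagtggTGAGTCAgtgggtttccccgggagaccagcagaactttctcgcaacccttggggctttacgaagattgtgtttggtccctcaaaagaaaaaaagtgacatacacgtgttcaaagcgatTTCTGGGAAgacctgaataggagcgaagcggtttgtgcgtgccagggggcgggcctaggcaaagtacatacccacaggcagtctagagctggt
Cd27, chr6:125237028-125237277, minus strand: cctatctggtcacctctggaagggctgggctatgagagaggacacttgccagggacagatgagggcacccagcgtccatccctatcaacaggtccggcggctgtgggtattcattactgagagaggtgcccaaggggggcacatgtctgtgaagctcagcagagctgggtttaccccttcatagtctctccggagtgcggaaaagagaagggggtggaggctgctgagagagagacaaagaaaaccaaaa

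The Fas window held 1 STAT-type match, 93 to 85 bases before the start, and 1 AP-1-type match, 211 to 205 bases before it. The Cd27 window held no match to either motif or to the kappaB consensus, which says only that these letters are not in that window. Among 32851 RefSeq promoter windows of this length, 7.02% held the STAT-type letters, 6.75% the AP-1-type letters and 5% the kappaB consensus, and these motifs overlapped in none of the printed windows. Of the 10 windows of the 8 genes, 5 held the STAT-type letters, and they are set side by side below with 10 bases on each side and the match in capitals. They belong to members that stood higher in at least 1 class (Fas, Tnfrsf18, and Tnfrsf25 in Trdc+ T cells alone) and to members that did not (Tnfrsf1b, Tnfrsf9). Tnfrsf4, which stood higher in Trac+ T cells, held no such match.
Fas, chr19:34290556-34290584, plus strand: tcaaagcgatTTCTGGGAAgacctgaata
Tnfrsf18, chr4:156026213-156026241, plus strand: tgctctacacTTCACAGAAggcctttaca
Tnfrsf1b, chr4:145247033-145247061, minus strand: agcgcattcaTTCCCGGAAgagatgctgg
Tnfrsf25, second start, chr4:152116317-152116345, plus strand: gggcctccacTTCTCAGAAggcatggctg
Tnfrsf9, second start, chr4:150927853-150927881, plus strand: caacagctgaTTCCAAGAAacccttcaga

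The STAT-type match lay 99 to 91 bases before the start in Tnfrsf18, 181 to 173 in Tnfrsf1b, 16 to 8 before the second start of Tnfrsf25 and 136 to 128 before the second start of Tnfrsf9. The second start of Tnfrsf9 also had an AP-1-type match 15 to 9 bases before it and 2 overlapping kappaB matches, and the second start of Tnfrsf25 had 1 kappaB match. No match to the 3 motifs was found for Tnfrsf4 or Tnfrsf14. A match of letters is a description and not a binding site. Annotated exons covered 158 bases of the Tnfrsf18 window (Gm16008 and Tnfrsf18) and 166 of the Tnfrsf4 window (Sdf4). Own exons covered 125 bases for Tnfrsf14, 81 at the second start of Tnfrsf9 and 22 at that of Tnfrsf25. The remaining windows, those of Fas and Cd27 among them, held no annotated exon bases. The matches of Tnfrsf18, Tnfrsf25 and Tnfrsf9 lay inside the gene intervals given below, and those of Fas and Tnfrsf1b outside.

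On GRCm38 (GENCODE annotation, matched by gene identifier) 6 of the 8 genes lie within 10.8 Mb of chromosome 4. Tnfrsf1b (ENSMUSG00000028599) is at chr4:145213463-145246870, Tnfrsf9 (ENSMUSG00000028965) at chr4:150914562-150946102, Tnfrsf25 (ENSMUSG00000024793) at chr4:152115934-152120119 and Tnfrsf14 (ENSMUSG00000042333) at chr4:154921933-154928563. Tnfrsf4 (ENSMUSG00000029075, chr4:156013843-156016612) and Tnfrsf18 (ENSMUSG00000041954, chr4:156026164-156028895) are neighbours on the plus strand, 9551 bp apart with 0 protein-coding genes between them. Their levels did not go together across the classes, as the values below show. Cd27 (ENSMUSG00000030336) is at chr6:125232622-125237010 and Fas (ENSMUSG00000024778) at chr19:34290666-34327772. Tnfrsf9 overlaps Camta1, and Cd27 overlaps Vamp1, each on the opposite strand. In all CD3-negative cells Camta1 was at 24.5 and 22.6 CPM, and Vamp1 at 14.1 and 11.6 CPM, which is close to the level of Cd27 itself. Tnfrsf18 overlaps the antisense gene Gm16008, at 0.957 and 0.606 CPM. Whether the counting used strand is not given in the sources used here, so reads of such pairs may have been shared.

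Fas encodes the death receptor CD95, which recruits FADD and caspase-8 when Fas ligand binds. Unstimulated Ncr1+ cells held Fas at 7.86 CPM (5.90 to 10.3), against 23.7 CPM (20.8 to 27.0) in those given IL-23, 3.02-fold higher (2.24 to 4.14). In Ccr6+ cells Fas was at 19.5 and 54.2 CPM, 2.78-fold higher (2.35 to 3.32), and in cells with neither marker at 11.3 and 36.5 CPM, 3.23-fold higher (2.89 to 3.62). The intervals of the libraries did not overlap in any of these classes. In Trdc+ T cells Fas was at 15.1 and 41.3 CPM, 2.74-fold higher (1.70 to 4.54), also without overlap. In Trac+ T cells 31 UMIs gave 24.3 CPM of Fas (16.5 to 34.4) and 44 UMIs 46.7 CPM (34.0 to 62.8), 1.93-fold higher (1.19 to 3.16), with intervals that overlap slightly. The Fas ratio lay at percentile 98.8, 99.3, 99.3, 98.7 and 97.2 of all measured genes of the 5 classes.

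The order of the classes for Fas was led by Trac+ T cells and Ccr6+ cells in both libraries and ended with Ncr1+ cells. In the IL-23 library Ccr6+, Trac+ and Trdc+ cells overlapped with their neighbours in that order, cells with neither marker overlapped with Trdc+ cells, and Ncr1+ cells lay below all of them. Within the unstimulated library each class overlapped with its neighbours. Fas in Ccr6+ cells was 2.48-fold its level in Ncr1+ cells in the unstimulated and 2.28-fold in the IL-23 library. With each cell thinned to 3000 UMIs, so that depth is equal, 1 or more Fas UMIs were seen in 1.84% of unstimulated and 5.72% of IL-23 Ncr1+ cells, in 5.19% and 13.8% of Ccr6+ cells and in 2.84% and 9.07% of cells with neither marker. It was found in 3.48% and 9.72% of Trdc+ and in 2.52% and 13.3% of Trac+ T cells. The share in unstimulated Trac+ T cells (0.690 to 6.32) goes against their CPM, so no order was read from it.

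The cells with B or plasma cell genes, which are part of the CD3-negative classes, were set beside these values. They held Fas at 13.3 CPM (3.62 to 34.0) and 39.2 CPM (12.7 to 91.4), on 4 and 5 UMIs, a range that includes the levels of the lymphocyte classes. B cells may express Fas themselves, so these cells do not bound free RNA. The difference in Fas between Ncr1+ and Ccr6+ cells of the same library was larger than the counting error. The part of free RNA in the ratio between libraries was not tested.

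Tnfrsf25 encodes DR3, the receptor of the cytokine TL1A and the other member with a death domain. Tnfrsf25 was at 94.4 and 115 CPM in Ncr1+ cells, at 102 and 112 in Ccr6+ cells and at 87.9 and 104 in cells with neither marker. These 3 ratios, 1.22, 1.10 and 1.18, all lay under 1.5-fold. In Trdc+ T cells Tnfrsf25 stood at 69.8 (57.4 to 84.1) and 113 CPM (97.8 to 130), 1.62-fold higher (1.28 to 2.06), and the intervals did not overlap. In Trac+ T cells it stood at 55.6 (43.4 to 70.1) and 57.4 CPM (43.1 to 74.9), which overlap. In the IL-23 library the Trac+ T cells lay below each other class, while Ncr1+, Trdc+ and Ccr6+ cells overlapped. At 3000 UMIs the share of Trdc+ T cells with a Tnfrsf25 UMI was 17.8% (13.1 to 23.4) and 23.6% (18.1 to 29.9), which overlap, and the ratio of the thinned sums fell under 1.5-fold (log2 0.57), as did the ratio with at least 2 UMIs required to place a cell (also log2 0.57).

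Tnfrsf18 encodes GITR, a co-stimulatory receptor of activated and regulatory T cells. In Ncr1+ cells Tnfrsf18 stood at 336 CPM (322 to 350) without and 654 CPM (639 to 671) with IL-23, 1.95-fold higher (1.86 to 2.05). It was at 124 and 213.5 CPM in Ccr6+ cells, 1.73-fold higher (1.61 to 1.86), and at 250.1 and 465.5 CPM in cells with neither marker, 1.86-fold higher (1.81 to 1.91). Intervals did not overlap in any CD3-negative class. With at least 2 UMIs required to place a cell, 558 and 588 Ccr6+ cells were left and their Tnfrsf18 ratio fell just under 1.5-fold (log2 0.58 against 0.79). In Trdc+ T cells Tnfrsf18 was at 261 and 304 CPM, a ratio of 1.17 (1.02 to 1.33), and in Trac+ T cells at 337 CPM (306 to 371) and 497 CPM (453 to 544), a ratio of 1.47 (1.29 to 1.68) just under the size used. The Trac+ call changed with the setting: the log2 ratio was 0.56 here and 0.62 with at most 5% mitochondrial UMIs, where it passed. Whether the ratio differs between CD3-negative cells and T cells was not tested.

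Tnfrsf18 also divided the classes within each library. Its level in Ncr1+ cells was 2.71-fold that in Ccr6+ cells unstimulated (2.53 to 2.92) and 3.07-fold with IL-23 (2.92 to 3.22). In the unstimulated library Trac+ T cells and Ncr1+ cells were level at the top, Trdc+ T cells and cells with neither marker overlapped below them, and Ccr6+ cells were lowest. With IL-23 the Ncr1+ cells stood above all classes, Trac+ T cells overlapped with cells with neither marker, and Trdc+ and then Ccr6+ cells followed without overlap. At 3000 UMIs a Tnfrsf18 UMI was in 55.8% and 75.2% of Ncr1+ cells and in 24.6% and 34.9% of Ccr6+ cells. The share was 42.8% and 56.9% in cells with neither marker, 40.4% and 46.3% in Trdc+ and 55.4% and 66.3% in Trac+ T cells. The B or plasma cells had a share of 15.0% (3.21 to 37.9) unstimulated and 16.7% (2.09 to 48.4) with IL-23. These intervals include the shares of Ccr6+ cells in both libraries and of Trdc+ T cells with IL-23. Tnfrsf18 in the B or plasma cells was at 39.9 (20.6 to 69.7) and 219 CPM (146 to 317). The second includes the Ccr6+ level and has 19 of its 28 UMIs in 1 cell.

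Tnfrsf9 encodes CD137, a receptor induced on activated T cells and NK cells. Ncr1+ cells held Tnfrsf9 at 575 (557 to 593) and 529 CPM (515 to 544), and cells with neither marker at 490 and 474 CPM. Ccr6+ cells held it at 351.5 (339 to 364) and 405 CPM (393 to 417), and it was at 453 and 389 CPM in Trdc+ T cells and at 209 and 255.0 CPM in Trac+ T cells. No ratio between libraries passed 1.5-fold in any class. Tnfrsf9 was lower with IL-23 in Ncr1+ cells and higher in Ccr6+ cells, each without overlap, so the level in Ncr1+ cells was 1.64-fold that in Ccr6+ cells unstimulated (1.56 to 1.72) and 1.31-fold with IL-23 (1.26 to 1.36). The ratio in Ncr1+ cells was that of the median measured gene of the class (percentile 49.75), while the ratio in Ccr6+ cells lay at percentile 90.3. Tnfrsf9 was also lower in cells with neither marker and in Trdc+ T cells, and in Trac+ T cells the ratio was 1.22 (1.02 to 1.46), with levels that overlapped (185 to 236 and 224 to 289). Trac+ T cells were lowest in both libraries. Neighbours in the order of Tnfrsf9 overlapped only for cells with neither marker and Trdc+ T cells unstimulated, and for Ccr6+ cells and Trdc+ T cells with IL-23. At 3000 UMIs between 48.2% and 53.8% of cells in the other 4 classes held a Tnfrsf9 UMI, and in Trac+ T cells 38.4% and 37.8%. In B or plasma cells the share was 5.00% (0.127 to 24.9) unstimulated and 25% (5.49 to 57.2) with IL-23, the second with an interval that includes the shares of the lymphocyte classes.

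Tnfrsf1b encodes TNF receptor type II, which binds TNF without a death domain. Tnfrsf1b was at 151 and 140 CPM in Ncr1+ cells, 174 and 140 in Ccr6+ cells and 167 and 140 in cells with neither marker. With IL-23 these 3 classes were level, at 140.4, 140.3 and 139.6 CPM. In Trdc+ T cells Tnfrsf1b stood at 167 (148 to 189) and 116 CPM (101 to 134), 1.44-fold lower (1.19 to 1.73) and without overlap. In Trac+ T cells it was at 124 and 121 CPM. The share of Trdc+ T cells with a Tnfrsf1b UMI at 3000 UMIs was 37.8% (31.5 to 44.4) and 24.5% (18.95 to 30.8), and the ratio of the thinned sums passed 1.5-fold (log2 -0.76).

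Cd27 encodes the receptor of CD70, carried by naive and memory T cells and lost on many effector cells. Cd27 was lower with IL-23 in each class. In Ncr1+ cells Cd27 stood at 14.3 (11.6 to 17.4) and 8.18 CPM (6.49 to 10.2), 1.74-fold lower (1.29 to 2.37). In Ccr6+ cells it was at 23.0 and 13.2 CPM, 1.74-fold lower (1.40 to 2.17), and in cells with neither marker at 20.5 and 10.8 CPM, 1.89-fold lower (1.67 to 2.15). The libraries did not overlap in these classes. With at least 2 UMIs required to place a cell, the Cd27 ratio of Ccr6+ cells fell under 1.5-fold (log2 -0.36 against -0.80), while that of Ncr1+ cells was at -1.13. In Trdc+ T cells Cd27 stood at 32.7 (24.4 to 42.9) and 12.6 CPM (7.91 to 19.1), 2.59-fold lower (1.55 to 4.48). In Trac+ T cells 51 and 12 UMIs gave 39.9 (29.7 to 52.5) and 12.75 CPM (6.59 to 22.3), 3.13-fold lower (1.65 to 6.45). These T cell sums rest on few UMIs, and the intervals nevertheless did not overlap.

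Unstimulated Cd27 was ordered from Trac+ and Trdc+ T cells through Ccr6+ cells and cells with neither marker to Ncr1+ cells, with overlap between all neighbours except the last. With IL-23 each class overlapped with its neighbour in the order. The Ccr6+ level was 1.62-fold the Ncr1+ level in both libraries. At 3000 UMIs a Cd27 UMI was in 3.78% and 2.29% of Ncr1+ cells, 6.33% and 3.37% of Ccr6+ cells and 5.14% and 3.15% of cells with neither marker. It was in 6.09% and 3.24% of Trdc+ and 11.3% and 6.12% of Trac+ T cells. The shares of the libraries overlapped in Ncr1+ cells and in both T cell classes, and did not in Ccr6+ cells or cells with neither marker. B or plasma cells had 3 of 20 cells with a Cd27 UMI unstimulated and 0 of 12 with IL-23 (a count of 0 allows a share of up to 25%), but these cells are known to carry Cd27.

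**Figure D2:**
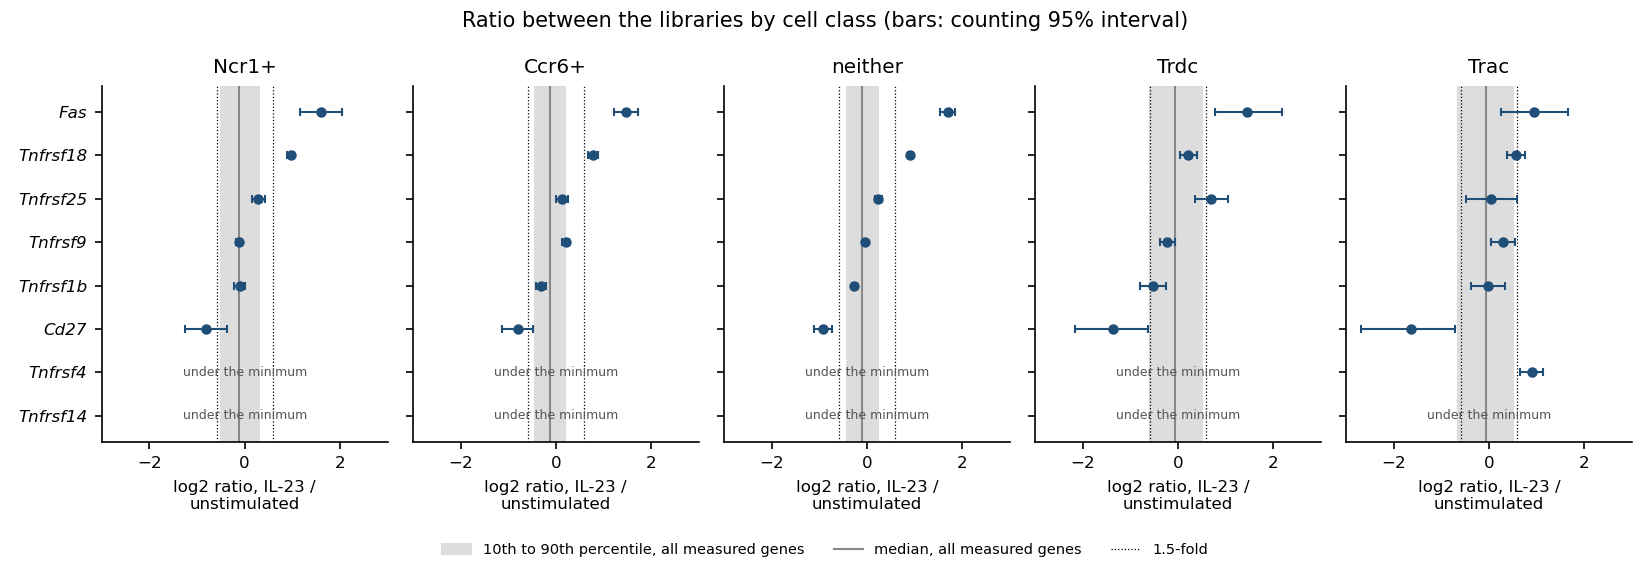
Log2 ratio of the IL-23 over the unstimulated library for each member (rows) in each class (panels), with counting 95% intervals, from 1 library per group; the grey band spans the 10th to 90th percentile of all measured genes of the class, the grey line is their median and dotted lines mark 1.5-fold. Fas lies to the right and Cd27 to the left of the band in each panel, and Tnfrsf9 lies inside or at its edge.

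Tnfrsf4 encodes OX40, a receptor of activated and memory CD4 T cells. In Trac+ T cells 235 unstimulated UMIs gave 184 CPM of Tnfrsf4 (161 to 209) and 321 UMIs with IL-23 gave 341 CPM (305 to 380), 1.85-fold higher (1.56 to 2.20). In Ncr1+ cells it was at 2.91 and 5.25 CPM, in Ccr6+ cells at 4.70 and 3.88, in cells with neither marker at 3.11 and 4.22, and in Trdc+ T cells at 7.55 and 3.44. All of these lay under the minimum of 10 CPM. The Trac+ level was 55.1-fold (45.1 to 67.3) that of all CD3-negative cells unstimulated and 78.0-fold (65.9 to 92.5) with IL-23. Against Trdc+ T cells it was 24.4-fold (13.7 to 47.8) and 99.1-fold (45.0 to 272), the second on 6 UMIs in Trdc+ cells. Among all genes measured in these comparisons, the share higher by 1.5-fold in Trac+ than in CD3-negative cells was 24.1% unstimulated and 25.4% with IL-23, and 13% in both for Trac+ over Trdc+ T cells.

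At 3000 UMIs a Tnfrsf4 UMI was in 28.9% (22.0 to 36.6) and 39.8% (30.0 to 50.2) of Trac+ T cells, and these overlap. In the other classes it was in 0.678% to 1.39% of cells, a share that the 1 of 20 B or plasma cells with a UMI (5.00%, 0.127 to 24.9) does not tell from background. Tnfrsf4 was unevenly spread among Trac+ T cells, with 63.4% and 49.3% of its thinned UMIs in the 10% of cells with most. One Trac+ cell of the IL-23 library held 37 of the 321 UMIs before thinning. With cells thinned the ratio between libraries was under 1.5-fold (log2 0.57). The 2 Trac+ cells with a Foxp3 UMI, both unstimulated, held 2 Tnfrsf4 UMIs, and without them Tnfrsf4 was at 185.5 CPM. In the IL-23 library no Trac+ cell had a Foxp3 UMI, so 341 CPM is the value of the whole class. A missing Foxp3 UMI does not show a missing transcript, so the part of regulatory T cells was not tested.

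Tnfrsf14 encodes HVEM, the receptor of LIGHT and a binding partner of BTLA and CD160. Tnfrsf14 was at or under 3.19 CPM in each class of each library and was not measured in any. All CD3-negative cells together held 41 UMIs unstimulated and 40 with IL-23, 0.769 and 0.713 CPM. There were 0 UMIs in unstimulated Trac+ T cells, and a count of 0 allows up to 3 UMIs. Levels this low are not told apart from free RNA, and no difference between libraries was detectable at this depth.

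Within one library the members divided Ncr1+ from Ccr6+ cells in both directions. Unstimulated, Tnfrsf18 and Tnfrsf9 stood higher and Cd27 and Fas lower in Ncr1+ cells, beside 9.49% of measured genes higher and 13.9% lower. With IL-23 Tnfrsf18 stood higher and Cd27 and Fas lower, beside 9.45% and 12.8%. Tnfrsf25 and Tnfrsf1b differed by less than 1.5-fold between these classes in both. Over both libraries this gives 3 calls higher and 4 lower. Trac+ T cells held less Tnfrsf9 than all CD3-negative cells, 0.437-fold unstimulated and 0.543-fold with IL-23, and less Tnfrsf25, 0.608-fold and 0.536-fold. Beside Tnfrsf4, they held more Cd27, 1.97-fold (1.46 to 2.61), and more Fas, 1.96-fold (1.32 to 2.81), in the unstimulated library, while with IL-23 these stood at 1.18-fold (0.607 to 2.08) and 1.24-fold (0.900 to 1.67). The share of genes lower by 1.5-fold in that comparison was 15.8% and 16%, and the share higher 24.1% and 25.4%. Trdc+ T cells were closer to the CD3-negative cells: of the 6 members measured in both, Cd27 alone stood apart, 1.62-fold higher (1.20 to 2.13) in the unstimulated library, where 19.1% of genes stood higher and 12.7% lower. With IL-23 0 of them passed 1.5-fold, beside 21.1% higher and 12.5% lower. Between the T cell classes, Tnfrsf9 stood lower in Trac+ than in Trdc+ cells of both libraries, at 0.461-fold and 0.656-fold, and Tnfrsf25 lower with IL-23, at 0.508-fold, beside 10.4% and 12.1% of genes. Fas unstimulated, 1.61-fold, and Tnfrsf18 with IL-23, 1.64-fold, stood higher there, the first with a counting interval that includes no difference (0.913 to 2.86).

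Trdc+ T cells were split by the delta chain V segment Trdv4, with a UMI in 148 unstimulated and 129 IL-23 cells and none in 84 and 92. Cd27 stood at 59.4 (41.1 to 83.0) unstimulated and 22.6 CPM (12.9 to 36.6) with IL-23 in cells without Trdv4, and at 17.7 (10.5 to 28.0) and 5.80 (2.13 to 12.6) in cells with it. Cells without Trdv4 thus held more Cd27 in each library, without overlap of the intervals. Tnfrsf18 was also higher without Trdv4, at 346 and 395 CPM against 213 and 242. Tnfrsf9 went the other way, at 412 and 313 CPM without Trdv4 against 476.5 and 441 with it. The Tnfrsf9 intervals of these groups overlapped unstimulated and did not with IL-23. Tnfrsf25 stood at 50.6 (33.9 to 72.7) and 141 CPM (115 to 172) without Trdv4 and at 80.6 and 93.8 with it; the libraries overlapped in cells with Trdv4 and did not in cells without it. Fas was at 27.9 and 38.1 CPM without Trdv4 and at 7.86 and 43.5 with it, where the unstimulated sum is 8 UMIs. Tnfrsf1b stood at 171 (139 to 209) and 95.9 CPM (74.5 to 122) without Trdv4. With Trdv4 it was at 165 and 131 CPM, which overlap. That the libraries differed more in 1 of the 2 groups of cells was not tested. The share of all genes that differ by this split is not given here, so it was not read as a trait of the members.

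**Figure D3:**
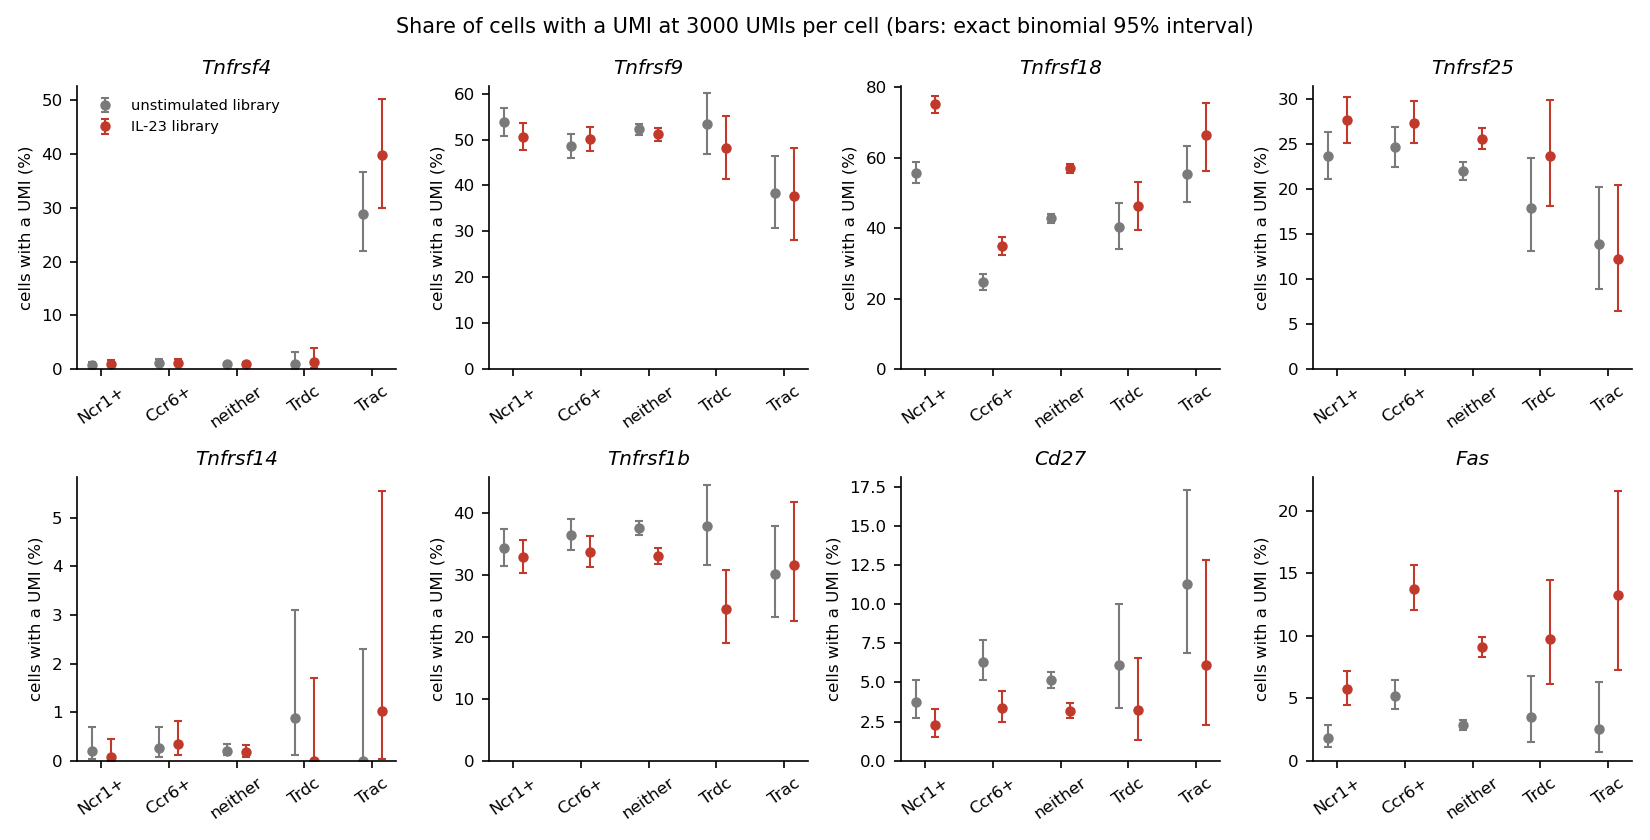
Share of cells with at least 1 UMI of each gene (vertical axis, percent, starting at 0) after thinning each cell to 3000 UMIs, by class, with the unstimulated library in grey and the IL-23 library in red; bars are exact binomial (Clopper-Pearson) 95% intervals. For Fas the share in Ccr6+ cells is 5.19% and 13.8%, and for Tnfrsf18 the share in Ncr1+ cells is 55.8% and 75.2%.

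Cells of a class commonly held transcripts of more than 1 member. At 3000 UMIs the mean number of members with a UMI was 1.74 unstimulated and 1.95 with IL-23 in Ncr1+ cells, 1.47 and 1.65 in Ccr6+ cells, 1.64 and 1.80 in cells with neither marker, 1.61 and 1.57 in Trdc+ and 1.805 and 2.08 in Trac+ T cells. Cells without a UMI of any member made up 10.3% (8.48 to 12.3) and 6.37% (5.07 to 7.89) of Ncr1+ cells, 17.0% and 12.9% of Ccr6+ cells and 13.0% and 9.41% of cells with neither marker. The CD3-negative classes thus had fewer cells with none in the IL-23 library, while Trdc+ T cells, at 12.6% and 11.1%, and Trac+ T cells, at 12.6% and 7.14%, overlapped. Tnfrsf4 and Tnfrsf18, the neighbours on chromosome 4, were found together in 22.6% of unstimulated Trac+ T cells, 1.41 times the share that independent detection gives (16.0%), and in 27.6% of IL-23 Trac+ T cells, 1.04 times (26.4%). The first of these was the highest ratio obtained for any pair of members in any class. In cells with neither marker the same pair was at 1.01 and 1.09 times. Tnfrsf18 and Fas, on different chromosomes, were at 1.37 times in unstimulated Ccr6+ cells. These ratios are a description of sparse counts, and a part of the shared position was not tested.

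**Figure D4:**
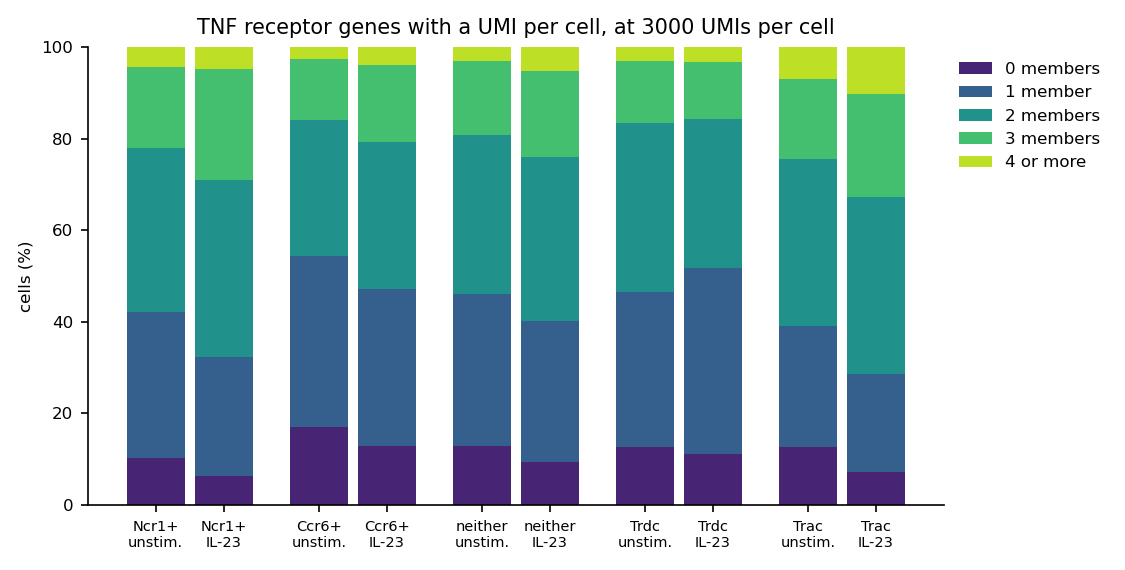
Share of cells (vertical axis, percent) with 0, 1, 2, 3 or at least 4 of the 8 genes detected after thinning to 3000 UMIs per cell, as stacked bars for each class and library. The bottom segment, cells without a member, is 17.0% in unstimulated Ccr6+ cells and 6.37% in IL-23 Ncr1+ cells.

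Other genes of the pathway were followed in all CD3-negative cells, where 3.96% of measured genes stood higher and 3.57% lower with IL-23 and the median log2 ratio was -0.11. Of 20 other receptors of the family 5 were measured, 3 higher and 1 lower, with a median of 0.62. Tnfrsf1a, the TNF receptor with a death domain, was at 41.9 and 64.4 CPM, Tnfrsf23, a decoy receptor of TRAIL, at 13.8 and 23.5, and Tnfrsf26 at 5.37 and 10.4. Cd40, best known on B and myeloid cells, was lower, at 17.6 and 10.5 CPM, and Tnfrsf12a was between, at 27.7 and 22.8. Of 11 ligands of the members 6 were measured, 2 higher and 2 lower, with a median of -0.42. Tnfsf14, which encodes LIGHT, was at 16.9 and 32.7 CPM and Tnfsf9, the ligand of CD137, at 5.72 and 10.3. Cd160 was lower, at 11.8 and 7.13 CPM, as was Tnf, at 41.4 and 26.9. Lta, at 38.95 and 26.6 CPM, and Fasl, the ligand of Fas, at 13.5 and 11.1, were between.

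Of 18 adaptors and regulators of death signalling 15 were measured in CD3-negative cells, 2 higher and 1 lower, with a median of -0.04 near that of all genes. Ripk1, the kinase that links death receptors to NF-kappaB and to necroptosis, was at 52.95 and 97.0 CPM, and Casp8, the caspase that Fas activates, at 61.2 and 93.4. Siva1, whose product is known to bind the tail of CD27, was lower, at 76.0 and 46.6 CPM. Birc3, at 159 and 235 CPM, and Cflar, the inhibitor of caspase-8, at 84.1 and 119, stood under 1.5-fold, as did Traf4, at 101.5 and 76.6 CPM. In Ncr1+ cells Birc3 and Cflar passed that size as well, so 4 of the 15 measured there stood higher and 3 lower. In Ccr6+ cells Ripk1 alone of 16 measured passed it.

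For 6 members the genes with the most similar levels were sought over the 10 values of 5 classes and 2 libraries among 7492 genes, by Pearson's r of log2(CPM + 1). The 10 points share 2 libraries and differ in depth, so r is a description. Tnfrsf9 was most like Gadd45a (r = 0.971), Bcorl1 (0.968) and Gm38190 (0.967), and Tnfrsf18 most like Slc25a20 (0.920), Rbm24 (0.914) and Pde4b (0.913). Tnfrsf25 was most like Abl2 (0.972), Smad5 (0.960) and Zfp516 (0.960), and Tnfrsf1b most like Zkscan1 (0.967), Taf1 (0.963) and Ist1 (0.957). Cd27 was most like Irf2bp1 (0.983), the ribosomal protein gene Rps28 (0.963) and Fam50a (0.957). Fas was most like Flot1 (0.960), Znrf1 (0.960) and Gm21887 (0.945). Tnfrsf4 and Tnfrsf14 had 2 and 0 values at 10 CPM and were left out.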

How the data were processed

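Single-cell RNA of 2 libraries, 1 per group, was deposited by the authors as whole-number UMI counts per gene and barcode, without normalization. Per the submitters' processing notes the tool was Cell Ranger 3.1.0 and the build mm10, while per the file headers it was cellranger 6.0.0. The annotation, the calling of cells and the use of strand: not given in the sources used here.

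From the counts, cells were filtered (minimum 500 genes, maximum 10% mitochondrial UMIs), placed in classes by 1 UMI of each marker, and summed per class and library. Levels are CPM of the class total with exact Poisson intervals, and shares of cells carry exact Clopper-Pearson intervals, both at 95%. Folds are quotients of CPM with an exact conditional binomial interval, and log2 ratios had 0.5 UMI added to each sum. Intervals assume independent molecules. With 1 library per group no p-value was computed, and a size of 1.5-fold was used. Shares were compared after thinning cells to 3000 UMIs (seed 7), which left out shallower cells. The ratio calculation was tested on simulated counts.

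The members, gene lists and rules were chosen with earlier results of these data known. Named genes are the members, up to 6 genes per list with the largest log2 ratio in CD3-negative cells from 10 CPM, and the 3 most similar genes per member. One marker gene and the alternative that used it are not reported here. Alternatives changed the filters, the class rules, the scaling and the added UMIs. Promoter sequences are from RefSeq (GRCm38.p6), where 8 of 8 genes matched. Python 3.11.15, numpy 2.4.6, scipy 1.17.1, pandas 2.3.3 and matplotlib 3.10.9 were used.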

Additional observations from a re-analysis of the deposited data

Results flagged for a closer look

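The CPM of Tnfrsf9 differed between the libraries in opposite directions by class. The log2 ratio was 0.20 in Ccr6+ cells, -0.12 in Ncr1+ cells, -0.05 in cells with neither marker and -0.22 in Trdc+ T cells. In each of these classes the counting intervals of the levels did not overlap between the libraries. The log2 ratio of Trac+ T cells was 0.29, a rise with a counting interval of the fold above no change (1.02 to 1.46) but with levels that overlapped. Each group is 1 library, and the difference between the classes was not tested. When levels were scaled by the median ratio of measured genes, Tnfrsf9 was at -0.002 in Ncr1+ cells and 0.06 in cells with neither marker, so its sign in the last depends on the scaling.

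The barcodes left out by the filters, 306 unstimulated and 1189 with IL-23, held some of the members at levels that differed between the libraries. Tnfrsf9 was at 187 CPM unstimulated and 533 CPM with IL-23 in them, Tnfrsf18 at 153 and 501 CPM, and Fas at 10.2 CPM (3 UMIs) and 54.7 CPM, all above the interval of the unstimulated library. The median of these barcodes was 748 UMIs and 542 UMIs, and their median mitochondrial share was 11.1% and 2.77%, so the filter removed different kinds of barcodes from the libraries. Cd27 in the same barcodes stood at 95.1 (63.2 to 138) unstimulated and 19.3 CPM (11.5 to 30.5) with IL-23. Tnfrsf25, at 61.1 (36.2 to 96.6) and 95.5 CPM, and Tnfrsf1b, at 156 (114 to 208) and 173 CPM, stayed within the unstimulated interval. So did Tnfrsf4 and Tnfrsf14. The share of all genes that differ in these barcodes is not given here.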

How the results depend on the processing

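Of the 15 differences between libraries past 1.5-fold, all stayed past it with at least 1000 genes, at most 5% mitochondrial UMIs, cells of 2 classes counted in both, the mean over cells of each cell's CPM, barcodes of both libraries left out, the top 2% of cells by UMIs left out, scaling by the median ratio of measured genes, a class total without Il22, Il17a, Il17f, mitochondrial and ribosomal protein genes, 5 UMIs added, or cells with B, plasma or myeloid genes left out. None changed direction. Tnfrsf18 in Ccr6+ cells fell under the size with at least 2 UMIs to place a cell (log2 0.58), which also lost Cd27 in Ccr6+ cells (-0.36) and Tnfrsf25 in Trdc+ T cells (0.57). Thinning to 3000 UMIs, like leaving out those cells added after the data had been seen, lost Tnfrsf25 in Trdc+ (0.57) and Tnfrsf4 in Trac+ T cells (0.57) and gained Tnfrsf1b in Trdc+ T cells (-0.76). Tnfrsf18 in Trac+ T cells passed the size with at most 5% mitochondrial UMIs (0.62), scaling by the median (0.63), the reduced total (0.59) and at least 2 UMIs to place a cell (0.69). The cause was not tested. With genes measured from 1 CPM, 5 other receptors stood higher in CD3-negative cells in place of 3, and 2 adaptors lower in place of 1. The share of all genes past the size at that floor is not given here, so nothing was read from these counts. The count of higher differences ranged from 8 to 11 and of lower ones from 4 to 6. No paired analysis was possible because each group is 1 library, and no replicate could be left out for the same reason. Depth limits Tnfrsf14 throughout and Tnfrsf4 outside Trac+ T cells, and the T cell classes rest on at most 232 cells.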
